A study of Mus musculus with 12 samples.

Results

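Chemokines and their receptors were examined in liver RNA of obese mice after vertical sleeve gastrectomy (VSG), a bariatric operation that leaves the stomach as a narrow tube. The genes were chosen by symbol and not by any measured value: they are protein-coding genes of the count table whose GENCODE symbol begins with Ccl, Cxcl, Cx3cl, Xcl, Ccr, Cxcr, Cx3cr, Xcr or Ackr followed by a digit. Described here are 66 rows of 46078, which carry 61 distinct symbols because 7 rows are copies or relatives of Ccl19, Ccl21 and Ccl27 on unplaced scaffolds. Enough reads for a test were found for 30 of the 66, beside 13054 of all genes, and 11 of the 66 had 0 counts in every library. The 12 libraries came from 4 mice in each of 3 groups, and the tests measured the spread between these mice. All were labelled as C57BL/6 mice of 21 weeks, and the methods describe them as male C57BL/6J mice, with obesity brought on by a high-fat diet. The VSG mice had the sleeve operation and free access to the high-fat diet afterwards. The Sham-WM mice had a laparotomy in which the stomach was handled but not cut, and were then given restricted food so that their weight matched that of the VSG mice. The Sham-Ad lib mice had the same sham operation and unrestricted high-fat food. Every mouse also received the antibiotic co-amoxiclav and pain relief that included meloxicam, an anti-inflammatory drug, and no mouse without an operation is among the 12 libraries. The comparisons address whether the operation and weight loss by food restriction leave the liver in different states.

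Chemokines are small secreted proteins that form gradients along which leukocytes move. They act on G protein-coupled receptors carried by those leukocytes, and are named CXC, CC, XC or CX3C by the spacing of the first cysteines. In the liver, Kupffer cells, sinusoidal endothelium, stellate cells and hepatocytes can all release them. The CXC ligands with a Glu-Leu-Arg motif draw neutrophils through Cxcr2, Ccl2 draws monocytes through Ccr2, and Cxcl12 holds cells that carry Cxcr4. The atypical receptors (Ackr1 to Ackr4) bind chemokines without the usual G protein signal and transport or remove them.

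The stretches of DNA just upstream of Cxcl1, Cxcl2 and Cxcl3 are shown because these neighbours on chromosome 5 encode closely related neutrophil-attracting ligands, and only Cxcl1 was well detected here. Each line holds the 130 bases that end just before the start site that RefSeq gives on GRCm38.p6, the same assembly as mm10, 5′ to 3′ on the plus strand. The capitals mark GGGAATTTCCC, the longest run of bases found in all 3 stretches, which was read from these sequences and resembles the sites that NF-kB proteins bind.
Cxcl1 (chr5:90891115-90891244): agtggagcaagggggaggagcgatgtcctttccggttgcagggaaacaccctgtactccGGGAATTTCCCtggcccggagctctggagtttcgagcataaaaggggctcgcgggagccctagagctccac
Cxcl2 (chr5:90903769-90903898): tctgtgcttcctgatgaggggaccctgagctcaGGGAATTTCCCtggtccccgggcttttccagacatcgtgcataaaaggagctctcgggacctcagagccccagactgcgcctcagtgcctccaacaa
Cxcl3 (chr5:90785971-90786100): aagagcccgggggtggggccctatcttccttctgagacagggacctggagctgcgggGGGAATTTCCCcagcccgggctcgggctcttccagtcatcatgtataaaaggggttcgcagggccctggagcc
The run of 11 bases began 71 bases before the start site in Cxcl1, 97 bases in Cxcl2 and 73 bases in Cxcl3. Over the whole RefSeq windows of 300 bases and on either strand, these letters were found in 3 of the 46 chemokine and receptor genes with a window, the same 3 that defined them, and in 14 of 27025 genes. Although Cxcl2 and Cxcl3 carried the same letters, their highest counts in any library were 18 and 1, against 1639 for Cxcl1.

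The upstream stretch of Cxcl13 is shown because this gene had the largest fold change of the family. In the next line the capitals mark TATAAA, the letters of a TATA box, which began 46 bases before the start site.
Cxcl13 (chr5:95956809-95956938): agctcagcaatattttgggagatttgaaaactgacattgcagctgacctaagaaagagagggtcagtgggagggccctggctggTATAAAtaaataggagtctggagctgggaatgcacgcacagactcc
On either strand, TATAAA was present in 15 of the 46 windows of the family (32.6%) and in 15.7% of all windows. A match shows only that the letters are present.

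Library totals ranged from 15122520 to 19384076 counts. Libraries are named by the animal number, and values in every library are given in the order 3F, 4F, 6F and 10F for Sham-Ad lib, 2F, 9F, 15F and 16F for Sham-WM, and 1F, 8F, 11F and 18F for VSG. A library was placed by the number that its name shares with a sample title, but another label field pairs the titles with other libraries, and the results by that field are given with the limits. The running numbers in the column names of the count table go in 1 block for each treatment, what they stand for is not given in the sources used here, and any effect that went with them cannot be told apart from that of the treatment. Markers of hepatocytes, the main cells of the liver, summed to 69233 to 111722 CPM, read counts scaled to a common library size, in VSG, to 112281 to 139460 in Sham-WM and to 94838 to 112759 in Sham-Ad lib libraries. The VSG and Sham-WM sums did not overlap, 2 of the 5 markers were lower and 0 higher in that comparison in edgeR, beside 11.9% and 15.0% of all genes, and their part in the results was not tested. Library 4F stood apart from the other Sham-Ad lib libraries, and this bears on most results of that group: its 12 neutrophil markers summed to 23.3 CPM, against 1.41 to 3.26 in the other 3.

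The family was dominated by Cxcl12, the ligand of Cxcr4 and Ackr3. It took 58.1% to 82.0% of all chemokine and receptor counts in Sham-Ad lib, 74.7% to 88.5% in Sham-WM and 47.2% to 66.0% in VSG libraries. The VSG and Sham-WM ranges did not overlap. The family as a whole reached 391 to 559 CPM in Sham-Ad lib, 420.0 to 617 in Sham-WM and 433 to 515 in VSG livers, so the total overlapped between the groups. Without Cxcl12, it summed to 147 to 272 CPM in VSG livers and to 71.1 to 106.2 CPM in Sham-WM livers, with no overlap, and to 82.9 to 234 CPM in Sham-Ad lib livers, where library 4F gave the highest value.

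Per kb of exon, Cxcl12 had the highest mean level over the 12 libraries, at 43.1 CPM per kb. Ccl9, a ligand of Ccr1, followed with 14.8, the neutrophil attractant Cxcl1 with 10.7, and Ccl6, a further Ccr1 ligand, with 6.34 CPM per kb. The order from the fifth to the tenth was Cxcl13, Cxcl9, Cxcl16, Ccl5, Ccl19 and Cxcl14, which lay between 5.69 and 1.27 CPM per kb. All 10 are ligands. The receptor with the highest level per kb was Cxcr4, at 0.965. Since the groups differ, this order held only as a mean: Cxcl1 was at 17.4 CPM per kb in VSG and 1.34 in Sham-WM livers, and Cxcl13 at 16.1 and 0.292.

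The livers of VSG and Sham-WM mice, which were matched by weight, differed in 13 genes of this family. In edgeR's quasi-likelihood test, 11 of the 30 tested genes were higher in VSG livers and 2 were lower, at an adjusted p under 0.05. Of all 13054 genes tested, 15.0% were higher and 11.9% lower by the same rule. Cxcl1, Cxcr2, Cxcl13, Cxcl14, Cxcl16, Ccl2, Ccr2, Ccl5, Ccl6, Xcr1 and Ackr1 were higher, and Cxcl12 and Ackr3 were lower. The median log2 fold change of the 30 genes was 1.04, beside 0.03 for all genes, and 24 of the 30 were above 0. The 4 VSG libraries did not overlap the 4 Sham-WM libraries for 11 genes that lay higher and 2 that lay lower, or 43.3% of the 30, beside 26.2% of all genes. An exact two-sided permutation test gives such a gene p = 0.0286, the smallest that 4 libraries against 4 allow, and 0.109 after adjustment over all genes. A low count filter that VSG libraries helped to pass favours such genes: 8 of the 30 had enough reads in fewer than 4 libraries outside VSG, and Ccl2, Cxcl13, Cxcr2 and Xcr1 are among them. Of the other 22, 7 were higher and 2 lower. Ccl2, Ccl6, Ccr2, Cxcl12, Cxcl13, Cxcl14, Cxcl16 and Cxcr2 were called in each of the 12 fits that left out 1 library, and the lowest count, 8, came without library 15F, where Cxcl1, Ccl5, Xcr1, Ackr1 and Ackr3 missed the threshold. All 13 calls were lost when 2 factors of unwanted variation were estimated from replicate differences (RUVs), where the 13 adjusted p-values were never under 0.115 and 4.01% of all genes were called. With these factors the log2 fold change was 0.87 for Cxcl13, 1.02 for Cxcl1 and 0.41 for Cxcr2. With 2 factors estimated from residuals (RUVr) instead, all 13 stayed called. That fit called 14 of the 30 genes higher and 3 lower, beside 42.1% of all genes in either direction. The study's methods also removed variation that they ascribe to batch, with RUVSeq and 2 factors, and do not name the variant used. The labels give no batch, and the main fit here held no such factor. All 13 were also lost when libraries were grouped by the other label field, by which 0 of all genes were called and 5 of the 13 changed sign.

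**Figure D1:**
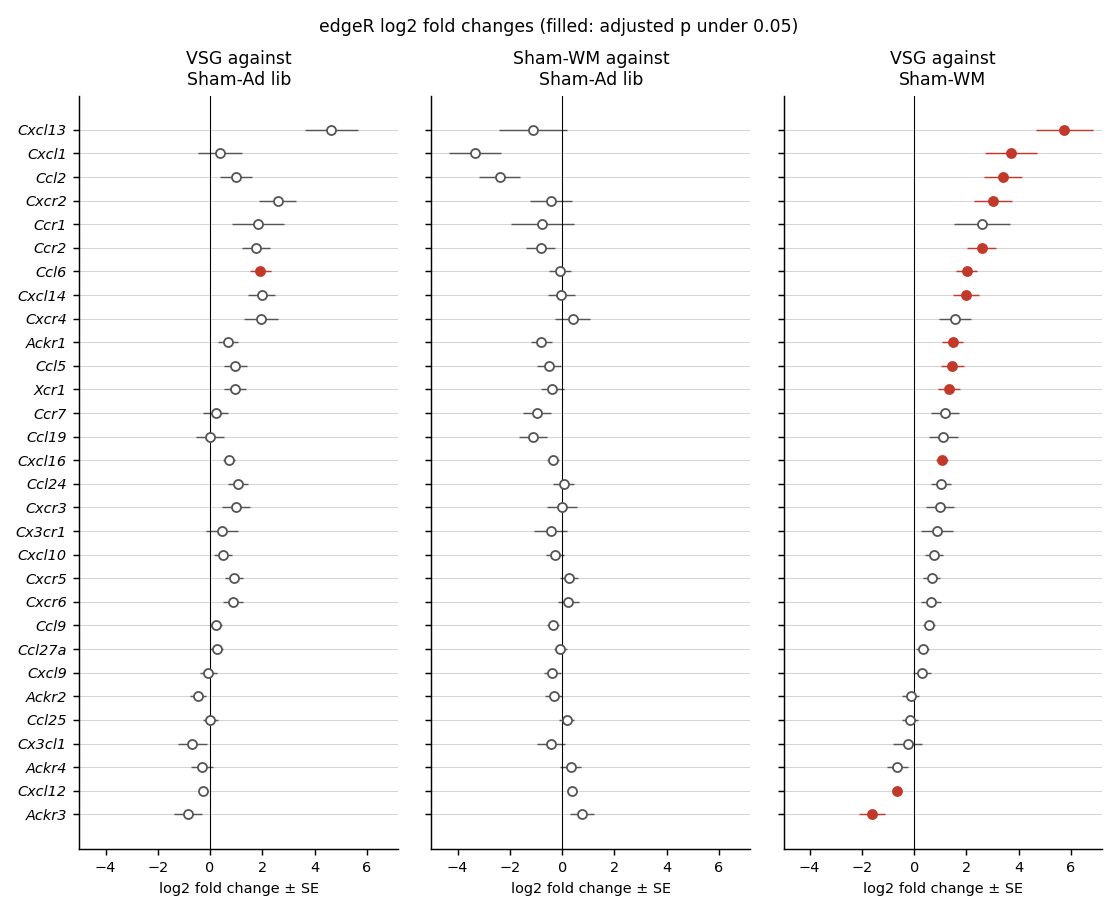
Log2 fold changes from edgeR with their standard errors (horizontal axes) for the 30 tested genes in the 3 comparisons, ordered by VSG against Sham-WM. Filled points have an adjusted p under 0.05: 1 gene for VSG against Sham-Ad lib, 0 for Sham-WM against Sham-Ad lib and 13 for VSG against Sham-WM.

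The ligand and receptor of neutrophil recruitment were both higher in VSG than in Sham-WM livers. Cxcl1 (chr5:90891241-90893115, plus strand) stood at 29.4, 58.9, 28.0 and 13.9 CPM in VSG, at 3.47, 2.15, 1.94 and 2.48 CPM in Sham-WM and at 2.40, 88.0, 4.33 and 5.96 CPM in Sham-Ad lib livers. Every VSG library was above every Sham-WM library, but the highest of all 12 was 4F, a Sham-Ad lib library. The log2 fold change of VSG over Sham-WM was 3.70 (SE 1.00, adjusted p = 0.0175) in edgeR, and without library 15F it was 3.59 (adjusted p = 0.0517). Cxcr2 (chr1:74153989-74161246, plus strand), the receptor for Cxcl1 that neutrophils carry, was at 7.11, 3.73, 1.21 and 0.739 CPM in VSG, at 0.408, 0.154, 0.612 and 0.394 in Sham-WM and at 0.223, 1.18, 0.270 and 0.439 in Sham-Ad lib livers. Libraries 1F and 8F were highest, and 18F, the lowest of VSG, was still above the Sham-WM libraries and below 4F. VSG exceeded Sham-WM by a log2 fold change of 3.01 (SE 0.72, adjusted p = 0.00955), and by 2.27 (adjusted p = 0.0338) without library 1F. Cxcl2, Cxcl3, Cxcl5, Cxcl15 and Cxcr1, the remaining ligands and receptor of this axis, did not reach enough reads to be tested. Cxcl5, an epithelial neutrophil attractant, had its highest count of 20 in library 8F and 16 counts in 4F.

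Neutrophil markers were also higher in VSG than in Sham-WM livers. They summed to 40.8 to 1176 CPM in VSG, 2.93 to 4.13 in Sham-WM and 1.41 to 23.3 in Sham-Ad lib livers. Of the 10 tested markers, 10 were higher than in Sham-WM and 9 higher than in Sham-Ad lib livers, beside 15.0% and 0.467% of all genes. With such low sums in sham libraries, VSG libraries helped markers to pass the low count filter. The filter favours these counts, so they cannot be set against the shares of all genes on equal terms. The granule protein gene Ngp, for example, had a log2 fold change of 10.55 (SE 1.56, adjusted p = 0.000937) over Sham-WM. The part of neutrophils in the levels of Cxcr2 or Cxcl1 was not tested. In bulk liver RNA, more cells of a type and more RNA per cell cannot be told apart.

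The monocyte axis followed the same order. Ccl2 (chr11:82035571-82037453, plus strand), the main monocyte attractant, was at 1.43, 3.06, 1.28 and 1.59 CPM in VSG, at 0.153, 0.0512, 0.255 and 0.225 in Sham-WM and at 0.335, 2.58, 0.379 and 0.376 in Sham-Ad lib livers. All Sham-WM libraries were below all others, while 4F reached the level of the VSG libraries. In edgeR, VSG exceeded Sham-WM by a log2 fold change of 3.40 (SE 0.75, adjusted p = 0.00601). Its receptor Ccr2 (chr9:124101950-124113557, plus strand) was at 14.8, 15.9, 3.99 and 3.81 CPM in VSG, at 2.19, 1.43, 1.38 and 1.41 in Sham-WM and at 1.84, 6.01, 1.41 and 2.07 in Sham-Ad lib livers. VSG libraries fell into a higher pair, 1F and 8F, and a lower pair that was still above Sham-WM. VSG exceeded Sham-WM by a log2 fold change of 2.59 (SE 0.55, adjusted p = 0.00573). The related monocyte attractants Ccl7, Ccl8 and Ccl12 had highest counts of 9, 4 and 7 and were not tested. Monocyte and recruited macrophage markers summed to 139 to 626 CPM in VSG and to 28.2 to 61.5 in Sham-WM livers, and to 32.0 to 137 in Sham-Ad lib livers with 4F the highest; 6 of the 9 were higher in VSG than in Sham-WM livers, beside 15.0% of all genes, and their part was not tested.

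The neighbours Ccl5, Ccl9 and Ccl6 on chromosome 11 encode ligands of Ccr1. Ccl6 (chr11:83587882-83593087, minus strand), a ligand made by macrophages and other myeloid cells, was at 41.0, 17.6, 17.8 and 14.0 CPM in VSG, at 5.35, 4.92, 7.60 and 4.56 in Sham-WM and at 3.68, 11.6, 4.98 and 3.45 in Sham-Ad lib livers. Every VSG library was above every library of both sham groups. VSG exceeded Sham-WM by a log2 fold change of 2.01 (SE 0.41, adjusted p = 0.00436). Ccl9 (chr11:83572919-83578636, minus strand) lies next to Ccl6 and was at 48.8, 56.6, 54.5 and 54.8 CPM in VSG, at 45.5, 47.7, 23.9 and 27.2 in Sham-WM and at 33.9, 55.5, 36.8 and 56.3 in Sham-Ad lib livers. It lay higher in VSG than in Sham-WM libraries with little room between them, and its log2 fold change of 0.57 (SE 0.23, adjusted p = 0.0764) missed the threshold. Ccl5 (chr11:83525778-83530518, minus strand), a product of T and NK cells among others, was at 5.26, 3.88, 1.73 and 2.62 CPM in VSG, at 2.14, 0.666, 0.969 and 1.13 in Sham-WM and at 2.68, 1.61, 0.703 and 1.94 in Sham-Ad lib livers. The groups overlapped, with library 2F of Sham-WM above 11F of VSG. Its log2 fold change over Sham-WM was 1.46 (SE 0.45, adjusted p = 0.0299), and it was called in 7 of the 12 fits that left out 1 library. The difference between the changes of the 3 neighbours was not tested. Ccl3 and Ccl4, on the far side of Ccl6, had highest counts of 10 and 7.

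Ccr1, the receptor of these 3 ligands on myeloid cells, was at 3.23, 1.48, 0.226 and 0.455 CPM in VSG livers, at 0.866 CPM in library 2F and 0 counts in the other 3 Sham-WM libraries, and at 0.188 to 0.698 CPM in Sham-Ad lib livers. With an adjusted p of 0.0807 for VSG against Sham-WM, it did not pass. Kupffer cell markers, which mark resident macrophages, summed to 589 to 1457 CPM in VSG, to 196 to 406 in Sham-WM and to 295 to 641 in Sham-Ad lib livers. Of these 8 markers, 7 were higher in VSG than in Sham-WM livers and 3 higher than in Sham-Ad lib livers, beside 15.0% and 0.467% of all genes, and their part in Ccl6 was not tested.

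Cxcl13 had the largest fold change of the family in both comparisons with VSG. This ligand draws B cells through Cxcr5 and is made by stromal cells and macrophages of lymphoid tissue. Cxcl13 (chr5:95956951-95961068, plus strand) was at 50.3, 6.38, 15.7 and 1.82 CPM in VSG, at 0.662, 0.154, 0.357 and 0.169 in Sham-WM and at 0.112, 2.36, 0.162 and 0.251 in Sham-Ad lib livers. The spread within VSG was wide, with 842 counts in 1F and 32 in 18F, while 7 of the 8 sham libraries had 13 counts or fewer and 4F had 44. For VSG over Sham-WM, edgeR gave a log2 fold change of 5.75 (SE 1.11, adjusted p = 0.00319), and 4.52 to 6.30 when each library was left out. Its receptor Cxcr5 was at 1.43, 1.58, 0.753 and 1.93 CPM in VSG and at 0.510 to 1.18 in Sham-WM livers. These ranges overlapped, and its log2 fold change was 0.67 (SE 0.33, adjusted p = 0.147). Its exons overlap those of Bcl9l on the other strand, and the use of strand in the counting is not stated. B and plasma cell markers summed to 10.2 to 22.6 CPM in VSG, to 4.22 to 6.93 in Sham-WM and to 3.95 to 8.26 in Sham-Ad lib livers, and their part was not tested. Of the lymph node ligands, Ccl19 was at 2.69, 2.76, 0.979 and 1.14 CPM in VSG, at 1.17, 0.870, 1.17 and 0.281 in Sham-WM and at 1.28, 4.02, 0.811 and 1.51 in Sham-Ad lib livers. The groups overlapped, and its log2 fold change of VSG over Sham-WM was 1.11 (SE 0.55, adjusted p = 0.146). Its receptor Ccr7 had a log2 fold change of 1.18 (SE 0.53, adjusted p = 0.108), and Ccl21a had at most 19 counts. Ccl19, Ccl21 and Ccl27 genes have near-identical copies on scaffolds, which had 0 counts in every library. How reads that match several copies were counted is not given, so the counts of Ccl19 and Ccl21a may be too low.

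Of the remaining CXC ligands, Cxcl14 (chr13:56288643-56296551, minus strand), a ligand of epithelial and other tissue cells, was at 10.1, 2.30, 4.14 and 2.05 CPM in VSG, at 1.94, 0.614, 1.22 and 0.844 in Sham-WM and at 0.949, 1.56, 1.08 and 1.13 in Sham-Ad lib livers. VSG libraries were above all sham libraries, with 18F at 2.05 and the closest sham library, 2F, at 1.94 CPM. VSG exceeded Sham-WM by a log2 fold change of 2.00 (SE 0.50, adjusted p = 0.0118), and by 1.27 (adjusted p = 0.0403) without library 1F. Cxcl16 (chr11:70453983-70459984, minus strand), which is anchored in the membrane and binds Cxcr6, was at 16.0, 11.1, 11.7 and 9.78 CPM in VSG, at 6.88, 5.12, 6.12 and 4.90 in Sham-WM and at 5.69, 11.3, 6.22 and 5.90 in Sham-Ad lib livers. It separated VSG from Sham-WM but not from 4F, and the log2 fold change over Sham-WM was 1.07 (SE 0.23, adjusted p = 0.00621). Cxcl16 overlaps exons of Zmynd15 on the other strand. Cxcr6, carried by liver T and NK cells, was at 1.02, 1.12, 0.904 and 0.796 CPM in VSG and 0.866, 0.563, 0.510 and 0.507 CPM in Sham-WM livers, with 2F above 18F and 11F close to it. Its log2 fold change was 0.65 (SE 0.38, adjusted p = 0.214).

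The interferon-induced ligands of Cxcr3 gave no call in any of the 3 comparisons. Cxcl9, the most abundant of them, was at 7.77, 11.3, 7.61 and 10.4 CPM in VSG, at 11.0, 3.58, 8.01 and 7.54 in Sham-WM and at 7.14, 16.5, 7.14 and 8.16 in Sham-Ad lib livers. The 3 groups overlapped, and the log2 fold change of VSG over Sham-WM was 0.30 (SE 0.33, adjusted p = 0.519). Cxcl10 and Cxcr3 had adjusted p-values of 0.11 and 0.17 in the same comparison. Cxcl10 shares exon sequence with Art3 on the other strand. A p that misses the threshold does not show that these genes were equal.

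Xcr1 (chr9:123852315-123862029, minus strand), the receptor by which cross-presenting dendritic cells follow Xcl1, was at 1.19, 1.68, 1.13 and 0.739 CPM in VSG, at 0.510, 0.410, 0.408 and 0.563 in Sham-WM and at 0.446, 1.23, 0.325 and 0.439 in Sham-Ad lib livers. VSG and Sham-WM did not overlap, but 4F was at the level of VSG. For VSG over Sham-WM, edgeR gave a log2 fold change of 1.33 (SE 0.43, adjusted p = 0.0342), and it was called in 5 of the 12 fits that left out 1 library. Its ligand Xcl1 had at most 6 counts. Dendritic cell markers overlapped between the groups, with sums of 7.22 to 10.3 CPM in VSG and 7.15 to 8.75 in Sham-WM livers, and 0 of the 3 tested ones was called in edgeR. Cx3cl1, a membrane-bound ligand of endothelium and epithelium, and its receptor Cx3cr1, found on patrolling monocytes, had adjusted p-values of 0.766 and 0.298 in the comparison of VSG with Sham-WM.

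**Figure D2:**
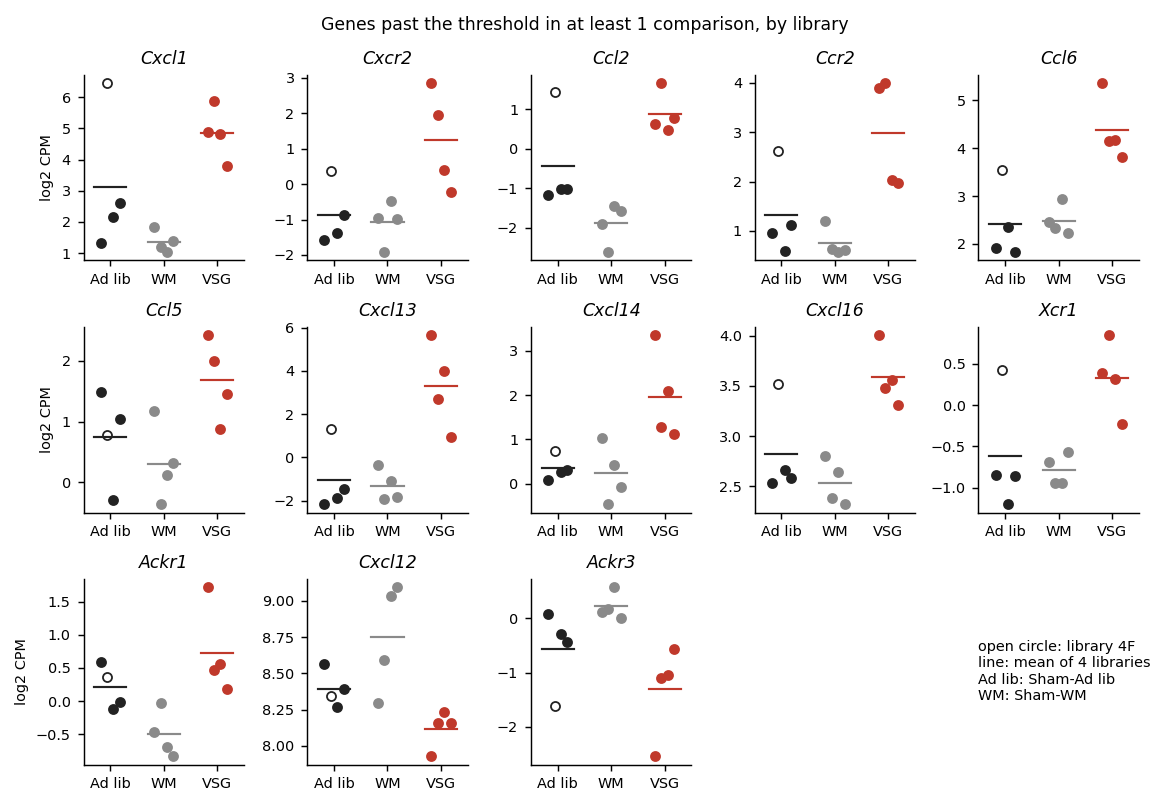
Log2 CPM (vertical axes, prior count 2) in each library of the 13 genes called in at least 1 comparison, with 1 point per library and a line at the mean of 4. The open circle is library 4F, which lies above the other Sham-Ad lib libraries for Cxcl1, Cxcr2, Ccl2, Ccr2 and Cxcl16 among others. Cxcl12 and Ackr3 are the 2 genes that lie lower in VSG than in Sham-WM.

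Cxcl12 and its atypical receptor Ackr3 were lower in VSG than in Sham-WM livers. Cxcl12 (chr6:117168535-117181367, plus strand) was at 243, 285, 301 and 286 CPM in VSG, at 314, 385, 524 and 546 in Sham-WM and at 378, 325, 308 and 335 in Sham-Ad lib livers. Every VSG library was below every sham library of both groups, although 11F, at 301 CPM, was close to 6F, at 308 CPM. The log2 fold change of VSG over Sham-WM was -0.67 (SE 0.16, adjusted p = 0.0112), with a range of -0.80 to -0.55 when each library was left out. Ackr3 (chr1:90203980-90216751, plus strand), the atypical receptor that takes up Cxcl12, was at 0.0597, 0.357, 0.377 and 0.569 CPM in VSG, at 0.968, 1.02, 1.38 and 0.901 in Sham-WM and at 0.949, 0.215, 0.703 and 0.627 in Sham-Ad lib livers. VSG was below Sham-WM without overlap, and the lowest Sham-Ad lib library was 4F. The log2 fold change over Sham-WM was -1.63 (SE 0.50, adjusted p = 0.0293), and it was -1.48 (adjusted p = 0.0804) without library 15F. It was called in 7 of the 12 fits that left out 1 library, and missed the threshold without 1F, 8F, 9F, 15F or 16F, with -1.28 (adjusted p = 0.0645) without 1F. Cxcr4, the signalling receptor on leukocytes, was at 6.93, 3.27, 1.36 and 1.59 CPM in VSG, at 1.99, 0.307, 1.68 and 0.450 in Sham-WM and at 0.614, 1.56, 0.433 and 0.753 in Sham-Ad lib livers. The groups overlapped, and its log2 fold change over Sham-WM was 1.56 (SE 0.63, adjusted p = 0.0791), on the opposite side of 0 from its ligand. DESeq2 gave Cxcr4 an adjusted p of 0.047 for this comparison. Among cells known to make Cxcl12, stellate cell and fibroblast markers summed to 248 to 383 CPM in VSG and to 324 to 402 in Sham-WM livers, and 3 of the 8 were lower and 1 higher in VSG, beside 11.9% and 15.0% of all genes. Sinusoidal endothelial markers summed to 124 to 203 and to 138 to 208 CPM, with 1 of 6 lower, which is near the share of all genes. Their part in Cxcl12 was not tested.

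Of the other atypical receptors, Ackr1 (chr1:173331886-173333750, minus strand), which carries chemokines across venular endothelium and is also found on red blood cells, was at 3.17, 1.28, 1.36 and 1.02 CPM in VSG, at 0.611, 0.870, 0.510 and 0.450 in Sham-WM and at 1.40, 1.18, 0.811 and 0.878 in Sham-Ad lib livers. VSG and Sham-WM did not overlap, but the gap was narrow between 18F and 9F. The log2 fold change over Sham-WM was 1.47 (SE 0.39, adjusted p = 0.0165), called in 9 of the 12 fits that left out 1 library, and it was 0.98 (adjusted p = 0.0585) without library 1F. Ackr1 shares exon sequence with Cadm3 on the same strand, so that some of its reads cannot be told apart from Cadm3 reads. Ackr2, a scavenger of inflammatory CC chemokines, and Ackr4, a scavenger of Ccl19 and Ccl21, had log2 fold changes of -0.13 and -0.64 with adjusted p-values of 0.788 and 0.259 in edgeR. Ackr4 overlaps exons of Acad11 on the other strand.

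Against Sham-Ad lib, the control group that kept its obesity, fewer differences of the family after VSG passed the test. In edgeR, 1 of the 30 genes was higher, Ccl6, and 0 were lower, beside 0.467% and 0.283% of all genes. The log2 fold change of Ccl6 over Sham-Ad lib was 1.92 (SE 0.41, adjusted p = 0.0493). This call stood close to the threshold, and Ccl6 was called in 3 of the 12 fits that left out 1 library, with adjusted p-values between 0.00519 and 0.172. Of the 30 genes, 23 had a log2 fold change above 0, and the median was 0.70, beside 0.03 for all genes. At an unadjusted p under 0.05, 12 genes were higher and 0 lower, beside 24.1% of all genes in either direction. The libraries did not overlap for Ccl6, Ccl24 and Cxcl14, which lay higher in VSG, and Cxcl12, which lay lower, or 13.3% of the 30, beside 9.21% of all genes. Ccl24, an eosinophil attractant made by macrophages, was at 1.49, 1.17, 3.01 and 1.88 CPM in VSG and 1.12, 1.07, 0.757 and 0.565 CPM in Sham-Ad lib livers, with a log2 fold change of 1.08 (SE 0.39, adjusted p = 0.122). Cxcl12 had a log2 fold change of -0.27 (SE 0.16, adjusted p = 0.324) in this comparison. DESeq2 found 7 genes higher, namely Ccl6, Ccr2, Cxcl13, Cxcl14, Cxcl16, Cxcr2 and Cxcr4, and 0 lower, beside 5.10% and 3.32% of all genes.

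Library 4F decided much of that comparison. Without it, edgeR called 10 of 30 genes, all of them higher after VSG and 0 of them lower, beside 5.36% and 1.47% of all genes in the same fit. These were Cxcl1, Cxcr2, Ccl2, Ccr2, Ccl6, Cxcl13, Cxcl14, Cxcl16, Cxcr6 and Xcr1. The low count filter, which VSG libraries helped some of them to pass, favours this count. Ccl2, Cxcl13, Cxcr2, Cxcr6 and Xcr1 had enough reads in all 4 VSG libraries, but in Sham-Ad lib only in 4F. Cxcl1 moved furthest: its log2 fold change of VSG over Sham-Ad lib was 0.37 (SE 0.85, adjusted p = 0.818) with 4F and 2.95 (adjusted p = 0.00519) without it. For Cxcl13 the value was 4.64 (SE 1.01, adjusted p = 0.051) with 4F and 6.69 (adjusted p = 0.00766) without it, and for Ccl2 1.00 (SE 0.60, adjusted p = 0.323) and 2.33 (adjusted p = 0.0105). Ccr2 had 1.76 (SE 0.53, adjusted p = 0.0844) with 4F and 2.44 (adjusted p = 0.0151) without it. Genes such as Ccl5, Cxcr5 and Cxcl12 moved little, with log2 fold changes of 0.97, 0.92 and -0.27 with 4F and of 0.93, 0.91 and -0.29 without. Leaving out 18F, the VSG library with the lowest neutrophil marker sum, gave 5 genes, and leaving out 8F gave 3, beside 8.20% and 1.72% of all genes in those fits. Leaving out any of the other 9 libraries gave 0, beside at most 0.521% of all genes. No label or method sets 4F aside, and its place in the group was kept.

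**Figure D3:**
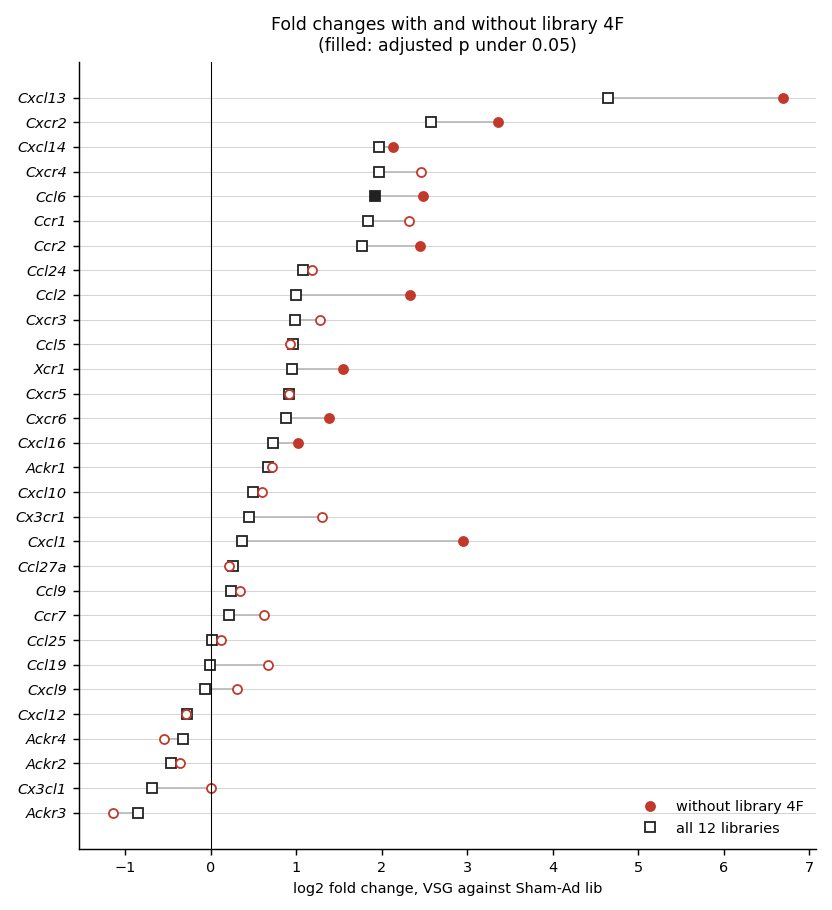
Log2 fold changes of VSG over Sham-Ad lib (horizontal axis) for the 30 tested genes with all 12 libraries (squares) and without library 4F (circles), joined by a line. Filled symbols have an adjusted p under 0.05 in edgeR, 1 with all libraries and 10 without 4F, and the longest lines belong to Cxcl1 and Cxcl13.

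After food restriction alone, 0 of the 30 genes were called against Sham-Ad lib, beside 3.53% of all genes that were higher and 3.45% that were lower. At an unadjusted p under 0.05, 1 gene was higher and 2 were lower, beside 21.6% of all genes in either direction, and DESeq2 found Ccl2 and Cxcl1 lower, beside 9.94% of all genes in either direction. The largest decreases were those of Cxcl1, with a log2 fold change of -3.33 (SE 0.99, adjusted p = 0.0623), and of Ccl2, with -2.40 (SE 0.78, adjusted p = 0.0773) in edgeR. For Ccl2 the libraries did not overlap, and this was the case for 3.33% of the 30 genes and 17.6% of all genes. Library 4F weighed on both, and without it the log2 fold changes were -0.75 (adjusted p = 0.41) for Cxcl1 and -1.06 (adjusted p = 0.32) for Ccl2. Cxcl12 lay higher, with a log2 fold change of 0.39 (SE 0.16, adjusted p = 0.178), and its libraries overlapped. With all 12 libraries, 22 of the 30 genes were below 0, and the median log2 fold change was -0.34, beside 0.00 for all genes. Library 4F weighed on this shift as well. Without it, some of these fold changes moved above 0, such as Cxcl13 (-1.10 with 4F, 0.95 without) and Cxcr2 (-0.43 and 0.34). Others stayed below 0, such as Ccl5 (-0.49 and -0.53) and Ackr1 (-0.80 and -0.74). Ccl6 was at 5.61 ± 1.37 CPM in Sham-WM and 5.93 ± 3.84 CPM in Sham-Ad lib livers (mean ± SD, n = 4).

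The genes that carry the signal inside the cell were followed as a list of 32 tested members. In VSG against Sham-WM livers, 19 of them were higher and 1 was lower in edgeR, beside 15.0% and 11.9% of all genes, with a median log2 fold change of 0.68, beside 0.03 for all genes. Among the higher ones were Arrb2, the beta-arrestin that takes receptors off the surface, with 1.15 (SE 0.20, adjusted p = 0.00235), and the Src family kinase Fgr, with 3.03 (SE 0.56, adjusted p = 0.00267). Rgs2, which shortens G protein signals, had 1.96 (SE 0.39, adjusted p = 0.00371), and Gnai3, an inhibitory G protein subunit, was lower, with -0.37 (SE 0.10, adjusted p = 0.0201). No member of the list was called in either comparison with Sham-Ad lib. Of all genes, 0.467% were higher and 0.283% lower after VSG, and 3.53% and 3.45% after food restriction. In the list, 26 of 32 had a log2 fold change above 0 after VSG and 9 of 32 after food restriction. Many of these genes are used mainly by leukocytes.

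A list of 17 tested genes covered the induction of chemokine transcription and included the inhibitor Nfkbia. Of the 17, 9 were higher in VSG than in Sham-WM livers and 0 lower, beside 15.0% and 11.9% of all genes. The median log2 fold change of the 17 was 0.89, beside 0.03 for all genes. The highest ranked by adjusted p were Nfkbia, an inhibitor of NF-kB that is itself an NF-kB target, with 1.03 (SE 0.15, adjusted p = 0.00107), and the interferon regulator Irf7, with 1.10 (SE 0.18, adjusted p = 0.00173). They were followed by the receptor Tlr2, with 2.79 (SE 0.47, adjusted p = 0.00191), and its adaptor Myd88, with 0.95 (SE 0.19, adjusted p = 0.00438). Against Sham-Ad lib, Nfkbia was higher, with 0.75 (SE 0.15, adjusted p = 0.0459), and the other 16 were not called. Of all genes, 0.467% were higher and 0.283% lower in that comparison. T and NK cell markers, 5 of them tested, summed to 6.25 to 11.2 CPM in VSG and to 2.96 to 7.08 in Sham-WM livers. In VSG against Sham-WM, 3 were higher and 0 lower, beside 15.0% and 11.9% of all genes.

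**Figure D4:**
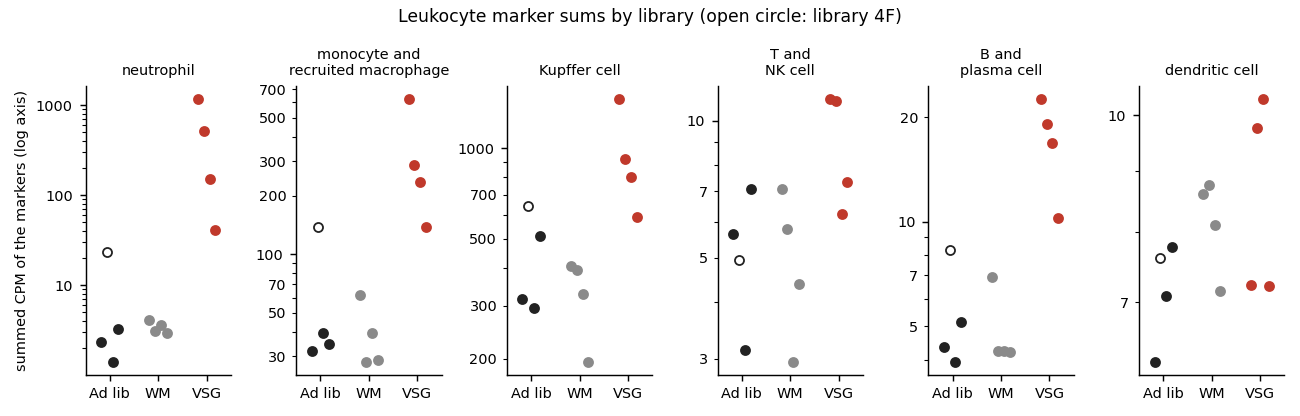
Summed CPM of the markers of 6 leukocyte types in each library (vertical log axes), with the open circle for library 4F. Neutrophil, Kupffer cell and monocyte sums separate VSG from Sham-WM libraries, dendritic cell sums overlap, and the neutrophil sums of VSG libraries run from 40.8 to 1176 CPM.

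The remaining 36 rows were not tested. Of these, 11 had 0 counts in every library, which allows up to 3 counts in a library: Ccl21b, Ccl27b, Ccr8 and Cxcl15 on chromosomes, and the 7 rows on scaffolds. For the near-identical Ccl19, Ccl21 and Ccl27 copies this limit may not hold, since the handling of reads that match several copies is not given. A further 8 reached at most 3 counts in any library, namely Ccl1, Ccl11, Ccl20, Ccl26, Ccr4, Cxcl3, Cxcl17 and Cxcr1. A highest count of 4 to 10 was found for 13, namely Ccl3, Ccl4, Ccl7, Ccl8, Ccl12, Ccl17, Ccl28, Ccr1l1, Ccr3, Ccr6, Ccr9, Ccr10 and Xcl1. The last 4 were Ccl21a, Ccl22, Cxcl2 and Cxcl5, with highest counts of 19, 15, 18 and 20. The ligands of skin, gut and allergic homing lay mostly below the limit of this depth, with Ccl24, Ccl25 and Ccl27a as the tested exceptions. Ccl25, a gut homing ligand, and Ccl27a, a skin homing ligand, had log2 fold changes of -0.16 and 0.33 for VSG over Sham-WM, with adjusted p-values of 0.715 and 0.327 in edgeR. Both overlap exons of a gene on the other strand.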

How the data were processed

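RNA was taken from the livers of 12 mice, 4 per group, and directional libraries were made from the poly(A) fraction. Per the labels and the study's methods, the authors aligned paired reads to mm10 with TopHat2 2.1.1 and counted reads on genes with featureCounts. The deposited values are whole-number counts per Ensembl gene, without normalization. Use of strand and the annotation release are not given in the sources used here. Symbols and positions came from GENCODE M21, which matched 45229 of 46078 genes.

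Group means of all 12 libraries were fitted with edgeR 4.0.16 in R 4.3.3 (TMM factors, filterByExpr at its defaults of 10 counts and a total of 15, quasi-likelihood test). Benjamini-Hochberg adjustment ran over 13054 genes, and 0.05 was the threshold. TMM factors scaled the CPM values, and log2 CPM used a prior count of 2. Exact permutation tests used the 70 arrangements of 4 libraries against 4 and were adjusted over all genes tested in place of the family alone, which had been the plan. The statistical steps were tested on simulated data. Libraries of a group had a Spearman rho of at least 0.963. The alternatives were DESeq2 1.42.0, its size factors, upper quartile factors, other filters, fits of 2 groups, 2 RUVr or RUVs factors, the other label field, unadjusted p-values and leaving out each library.

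Values in every library are given for the genes called in a comparison and the 10 with the highest level per kb, and the ligands or receptors of called genes are named beside them. The genes, the lists and this rule were chosen with earlier results of these data known. The total counts of 15122520 to 19384076 per library set the precision, and the limit that 0 counts allow (3 counts) covers counting error only, since reads were counted without molecular identifiers. Cxcl11, Ccl19-ps1 and Ccl19-ps3 are not protein coding in GENCODE and were left out. A further 1 that the symbol rule takes is not reported here and is in no count of the family. Promoter windows are from RefSeq (GRCm38.p6), 250 bases before to 50 after a start site.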

Additional observations from a re-analysis of the deposited data

Results flagged for a closer look

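In 90 groups of 4 libraries, formed by the 30 tested genes and the 3 treatments, the library at either end was examined for a gap to its neighbour that, as a share of the group's range of log2 CPM, passed Dixon's limit at the 95% level. Chance marks about 1 group in 20, so the 7 marks found are close to what chance gives. Library 4F gave 3 of them, all high within Sham-Ad lib, with a gap of 0.948 of the range for Ccl2, 0.871 for Cxcl16 and 0.842 for Cxcl9. Within Sham-WM, library 2F was high for Ccr1 (gap 1.00 of the range, the other 3 libraries at 0 counts) and for Ccr2 (0.915), and library 9F was low for Cxcl10 (0.908). Within VSG, library 11F was low for Ccr7 (0.868).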

How the results depend on the processing

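For VSG against Sham-WM, 13 genes of the family were called, beside 26.9% of all genes. When each library was left out, 8 to 13 were called, with 8 without 15F, beside 16.8% of all genes. The count was 7, beside 27.4% of all genes, when 10 counts were required in every library, which left 14 of the genes to test. It was 17 with 2 RUVr factors, beside 42.1% of all genes, and 0 with 2 RUVs factors, beside 4.01%. When libraries were grouped by the description field it was 0, beside 0% of all genes, and the cause of these losses was not tested. In that grouping the log2 fold changes of Ackr3 (0.15), Ccl2 (-0.80), Cxcl1 (-1.65), Xcr1 (-0.34) and Ccr2 (-0.13) had the opposite sign. For VSG against Sham-Ad lib, the count of 1 became 7 of 36 with DESeq2 and 2 of 30 with its size factors. It was 5 of 55 with no filter on low counts, 9 of 30 with 2 RUVr factors and 12 of 30 at an unadjusted p under 0.05. In the same order, 8.42%, 0.973%, 2.72%, 23.2% and 24.1% of all genes were called. The count became 0 with upper quartile factors, with 10 counts in every library, with 2 RUVs factors, with the description field and with the 2 groups alone. In these fits at most 0.613% of all genes were called. It was 0 to 10 when each library was left out, with 10 without 4F, beside 6.82% of all genes. For Sham-WM against Sham-Ad lib, the count of 0 became 2 of 35 with DESeq2 and 1 of 55 with no filter. It was 2 of 30 with 2 RUVr factors and 3 of 30 at an unadjusted p under 0.05. In the same order, 9.94%, 3.42%, 16.6% and 21.6% of all genes were called. The count was 0 to 1 when each library was left out, with 1 without 3F, beside 4.08% of all genes. Every other alternative kept the 3 counts within 1.5 times. Of 168 fold changes of called genes with 1 library left out, 138 stayed past the threshold, 30 did not, and 0 changed sign. No paired analysis was possible because the groups share no replicate numbers. Members at a few counts per library, such as Ackr3 and Xcr1, are limited by depth.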

Other observations

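Chemokine family genes whose symbols fall outside the naming rule were also read. Of 7 such genes, 3 were higher and 1 lower in VSG than in Sham-WM livers, beside 15.0% and 11.9% of all genes. The higher ones were Ppbp and Pf4, which encode chemokines that platelets store in their granules, and Ccrl2, a receptor-like protein that presents chemerin. Their log2 fold changes were 4.05, 2.49 and 1.34 in edgeR, with adjusted p-values of 0.00144, 0.005 and 0.00273. Dpp4, a protease that trims chemokines, was lower, with a log2 fold change of -0.32 and an adjusted p of 0.0469. Against Sham-Ad lib, Ppbp was higher after VSG, with a log2 fold change of 3.40 and an adjusted p of 0.0435. It was 1 of the 7, with 0 lower, beside 0.467% and 0.283% of all genes. The 4 platelet markers summed to 3.30 to 8.07 CPM in VSG, 1.18 to 2.24 in Sham-WM and 1.79 to 3.17 in Sham-Ad lib livers, and their part in Ppbp and Pf4 was not tested.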
